A study of Mus musculus with 8 samples.

Results

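The MHC class II presentation genes are 10 genes named for their roles in the presentation of peptides to CD4+ T cells. They are Ciita, H2-Aa, H2-Ab1, H2-Eb1, H2-DMa, H2-DMb2, H2-Oa, H2-Ob, Cd74 and Ctss, and they were followed through every array probe set annotated to one of them and to no other gene. That rule found all 10 genes, with 20 probe sets, among the 18193 genes and 34945 such probe sets of the whole table. Where a gene had several, the one with the highest mean over the arrays stands for it unless another is named.

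RNA was measured in CD11b+ cells, a fraction of monocytes, macrophages, neutrophils and some dendritic cells that carry this integrin chain. The cells came from NOD mice, a strain that develops autoimmune diabetes, or from the congenic strain NOD.Idd3, which carries another allele at the Idd3 diabetes locus on chromosome 3. The 4 groups were NOD unstimulated (medium alone), NOD with 5 µg/ml peptidoglycan (PGN, a bacterial cell wall polymer sensed by innate receptors), NOD.Idd3 unstimulated and NOD.Idd3 with PGN. All cells were kept for 4 h at 37 °C before RNA extraction, and each group had 2 arrays, 8 in all. The labels give no tissue of origin and no age or sex of the mice. They number biological replicates without saying whether these were separate animals or pools, and the p-values therefore describe no more than the spread from array to array.

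Class II molecules are pairs of an alpha and a beta chain that show peptides from endosomes at the cell surface. In the endoplasmic reticulum the chains bind the invariant chain, CD74, which blocks the peptide groove and guides them to endosomes, where cathepsin S trims CD74 to a remnant called CLIP. H2-DM exchanges CLIP for antigenic peptide, and H2-O, best known from B cells and thymus, restrains H2-DM. CIITA binds no DNA itself. It is recruited by the factors RFX, CREB and NF-Y on the X1, X2 and Y boxes of class II promoters and switches class II genes on. NOD mice carry the H2g7 haplotype, with a NOD-specific I-A beta chain and no surface I-E.

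Promoter sequences of the reference strain (RefSeq, assembly GRCm38.p6, from 250 bases before to 50 bases after a transcript start) are shown because CIITA acts through these boxes. The table held 8 promoters of 7 of the 10 genes, on chromosome 17 but for that of Ctss on chromosome 3. The capitals mark the Y box core ATTGG, the X1 core GCAAC and, in H2-Aa, the X2 core TGACG with its reverse complement, which overlap. Each sequence runs 5′ to 3′ on the gene's own strand.
H2-Aa, chr17:34287842-34287929, minus strand: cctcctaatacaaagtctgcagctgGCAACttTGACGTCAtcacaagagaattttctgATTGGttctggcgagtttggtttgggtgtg
H2-Eb1, chr17:34305751-34305837, plus strand: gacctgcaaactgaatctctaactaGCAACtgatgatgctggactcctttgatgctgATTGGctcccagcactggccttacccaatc
H2-Oa, chr17:34092278-34092365, plus strand: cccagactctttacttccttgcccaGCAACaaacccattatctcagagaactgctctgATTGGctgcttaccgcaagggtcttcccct
H2-Ob, chr17:34238793-34238877, plus strand: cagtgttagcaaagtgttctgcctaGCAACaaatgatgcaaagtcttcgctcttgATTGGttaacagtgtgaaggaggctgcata
H2-DMb2, chr17:34145101-34145188, plus strand: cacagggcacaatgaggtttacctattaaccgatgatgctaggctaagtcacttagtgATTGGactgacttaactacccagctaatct

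In the first 4 of these, GCAAC was followed by ATTGG on the same strand, with 33 bases from start to start in H2-Aa and H2-Oa, 32 in H2-Eb1 and 30 in H2-Ob. Such a pair at 28 to 38 bases was in 4 of the 7 member genes searched and in 0.487% of all 32851 promoters. Alone, and on either strand, ATTGG was in 37.4%, GCAAC in 35.2% and TGACG in 20.8% of all promoters. H2-DMb2 held ATTGG without GCAAC, the 2 promoters of H2-DMa held 1 of the pair each, and that of Ctss held none of the 3 cores. Among the other gene lists described further on, H2-Eb2 was the one gene with the pair. Of 101 measured genes whose promoter held it, 8 rose and 8 fell with PGN (15.8%), beside 11.4% of the 14452 measured genes with any promoter in the table. These are letter matches in the reference genome, and the NOD alleles were not read.

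The arrays carried the markers of the labelled cells. Itgb2, the partner chain of CD11b, lay between 13.11 and 13.46 on the log2 scale and Itgam, CD11b itself, between 7.87 and 9.02, with array medians between 5.42 and 5.50 and the 25th percentile between 3.84 and 4.05. Neutrophil markers had summed linear values between 96615 and 141923 on the 8 arrays. B cell markers were also above background on some arrays, and their values stand beside the strain comparison. Levels here are log2 intensities of 1 probe set each and were compared between arrays of the same gene only.

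Ciita was the 1 member called with PGN. Its transcript rose 2.68-fold on average over the strains, while the class II chains, Cd74 and the H2-DM and H2-O genes gave no call. In NOD, Ciita (its brightest probe set, chromosome 16) read 7.38 and 7.34 unstimulated and 8.05 and 8.79 with PGN. In NOD.Idd3 it read 6.58 and 6.42 unstimulated and 7.40 and 9.17 with PGN. The 4 PGN arrays lay above the 4 unstimulated arrays with no overlap, and the PGN arrays were the more spread. Of the 18193 genes, 8.6% had every PGN array above every unstimulated array, and Ciita was the 1 member among them. The averaged rise was 1.42 ± 0.35 on the log2 scale (limma standard error, 95% interval 0.62 to 2.22), with an adjusted p of 0.0341. That made 1 of 10 members called, beside 11.3% of all genes (885 higher and 1164 lower), so the count of members is near the background.

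**Figure D1:**
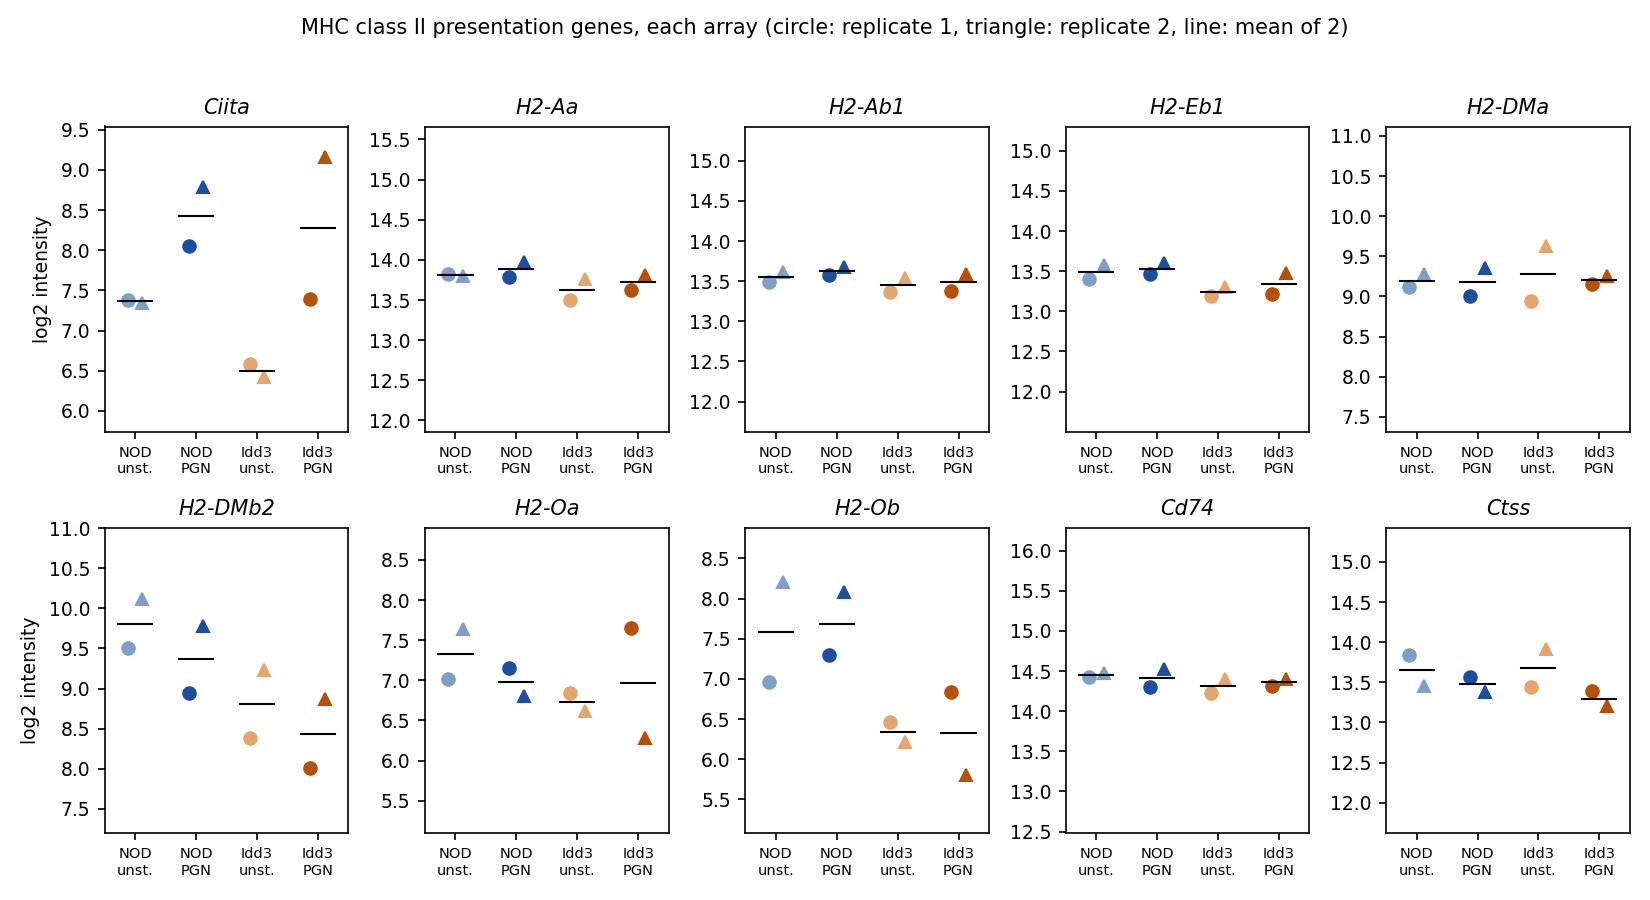
Log2 intensity of the 10 genes on each of the 8 arrays, by strain and condition (unst., unstimulated), with circles for replicate 1, triangles for replicate 2 and a line at the mean of 2 arrays. All panels span the same log2 range. Ciita rises from 6.42 to 7.38 unstimulated to 7.40 to 9.17 with PGN. The brightest probe sets of the chains and Cd74 change little, and H2-Ob and H2-DMb2 sit lower in NOD.Idd3.

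The size of the Ciita rise depended on the replicate. Within replicate 1, PGN minus unstimulated was 0.67 in NOD and 0.82 in NOD.Idd3, and within replicate 2 it was 1.45 and 2.74. With the replicate number as a block, a fit that calls 16.9% of all genes, Ciita was the 1 member called, at an adjusted p of 0.0136. The call was lost, at 0.0607, with a term for the suffix RR1 in the array names, and at 0.0688 and 0.0986 without NOD unstimulated replicate 1 or 2. It was likewise lost without NOD PGN replicate 2 (0.105) and without NOD.Idd3 unstimulated replicate 1 or 2 (0.0865 and 0.105), where the rise stayed between 1.24 and 1.46. Over all 17 alternatives the rise ran from 0.98 to 1.86 and the adjusted p from 0.00334 to 0.105.

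The other probe sets of Ciita gave the same direction, with smaller standard errors. The second brightest read 6.38 and 6.04 in unstimulated NOD, 6.97 and 7.68 in NOD with PGN, 5.91 and 5.88 in unstimulated NOD.Idd3 and 6.77 and 7.22 in NOD.Idd3 with PGN. The dimmest read 4.76 and 4.60, then 5.52 and 5.14, then 4.24 and 4.19, then 5.06 and 5.23 in the same order of groups. Their averaged rises were 1.11 ± 0.20 (adjusted p = 0.0095) and 0.79 ± 0.15 (adjusted p = 0.0123). In that fit over all 34945 probe sets, 3933 were called, and so were 3 of the 20 probe sets of the members, all 3 of them of Ciita.

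**Figure D2:**
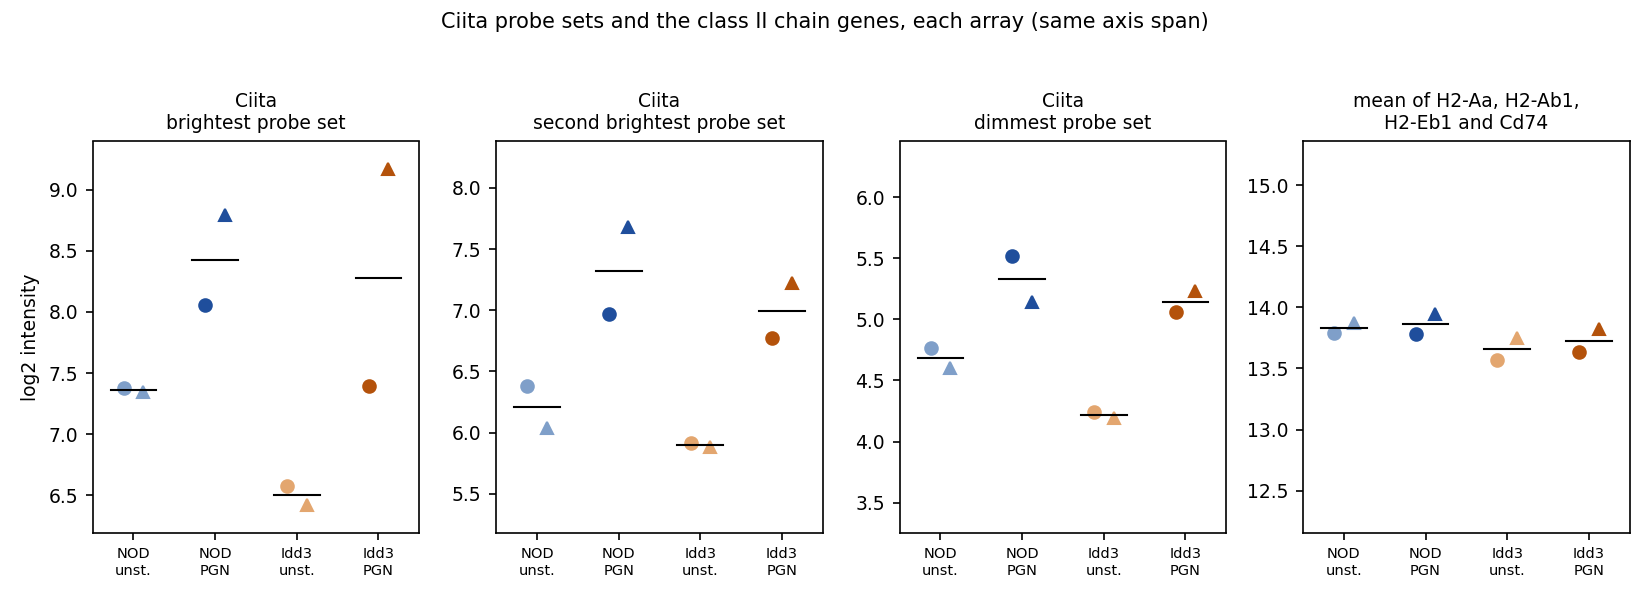
Log2 intensity of the 3 Ciita probe sets and of the mean of H2-Aa, H2-Ab1, H2-Eb1 and Cd74 on each array, with axes of equal span (circle, replicate 1; triangle, replicate 2; line, mean of 2). Each Ciita probe set is higher with PGN in both strains, and the mean of the 4 class II genes stays within a narrow band.

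Taken strain by strain, the Ciita rise did not pass. It was 1.06 ± 0.50 in NOD (adjusted p = 0.292), where 3.94% of all genes and 0 of 10 members were called and no member had an unadjusted p under 0.05. In NOD.Idd3 it was 1.78 ± 0.50 (adjusted p = 0.107), where 3.14% of all genes and 0 members were called and Ciita was the 1 member with an unadjusted p under 0.05. With the replicate block the rise in NOD.Idd3 had an adjusted p of 0.0442, 1 member beside 6.63% of all genes. The rises differed between the strains by 0.72 ± 0.70 (NOD.Idd3 minus NOD, 95% interval -0.88 to 2.32, adjusted p = 1.00). That interval holds both no difference and a wide one, and no such difference was called for any member or for any gene (0%, by limma, and 314 genes at an unadjusted p under 0.05, no member among them).

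The chains that form the peptide groove gave no call with PGN, and their brightest probe sets changed little. H2-Aa, the I-A alpha chain, read 13.83 and 13.80 in unstimulated NOD, 13.79 and 13.98 with PGN, 13.49 and 13.76 in unstimulated NOD.Idd3 and 13.63 and 13.81 with PGN. H2-Ab1, the I-A beta chain, read 13.49 and 13.61, 13.57 and 13.68, 13.36 and 13.53, and 13.38 and 13.59 in the same order. H2-Eb1, the I-E beta chain, read 13.40 and 13.58, 13.46 and 13.60, 13.19 and 13.30, and 13.22 and 13.47. For each of the 3 chains the PGN and unstimulated arrays of a strain overlapped. Their averaged PGN effects were 0.08 ± 0.15, 0.06 ± 0.14 and 0.07 ± 0.14, with upper 95% limits of 0.41, 0.38 and 0.40. Those limits all lie below the lower limit of the Ciita rise.

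Cd74, the invariant chain, read 14.43 and 14.47 in unstimulated NOD and 14.31 and 14.53 with PGN, and 14.22 and 14.40 in unstimulated NOD.Idd3 and 14.31 and 14.40 with PGN. Its PGN effect was 0.01 ± 0.14 (95% interval -0.31 to 0.33). The highest log2 value of any probe set on an array was between 14.65 and 15.39, so these 4 genes were read close to the top of the arrays' range, and any compression of a difference there was not tested.

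Ctss, cathepsin S, the protease that trims the invariant chain, read 13.85 and 13.46 in unstimulated NOD and 13.57 and 13.38 with PGN. In NOD.Idd3 it read 13.44 and 13.92 unstimulated and 13.39 and 13.20 with PGN. Both PGN arrays were the lower there, as for 22% of all genes. The averaged effect of -0.28 ± 0.17 did not pass (adjusted p = 0.362). Ctss lies on chromosome 3, as the Idd3 locus does, and its strain difference was -0.07 ± 0.17.

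The genes of the peptide exchange machinery gave no call with PGN. H2-DMa, the alpha chain of H2-DM, read 9.12 and 9.27, 9.01 and 9.36, 8.94 and 9.63, and 9.15 and 9.26 in NOD unstimulated, NOD with PGN, NOD.Idd3 unstimulated and NOD.Idd3 with PGN. H2-DMb2, a beta chain of H2-DM, read 9.50 and 10.11, 8.94 and 9.78, 8.39 and 9.23, and 8.01 and 8.87. It was lower with PGN in each of the 4 pairs of a strain and a replicate, by 0.33 to 0.56 on the log2 scale, yet the groups overlapped and the averaged effect of -0.41 ± 0.30 did not pass (adjusted p = 0.447). H2-Oa and H2-Ob, the chains of H2-O, had PGN effects of -0.05 ± 0.30 and 0.04 ± 0.33. Over the 10 members the median PGN effect was 0.02, beside 0.05 over all genes, with 6 above 0 and 4 below.

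**Figure D3:**
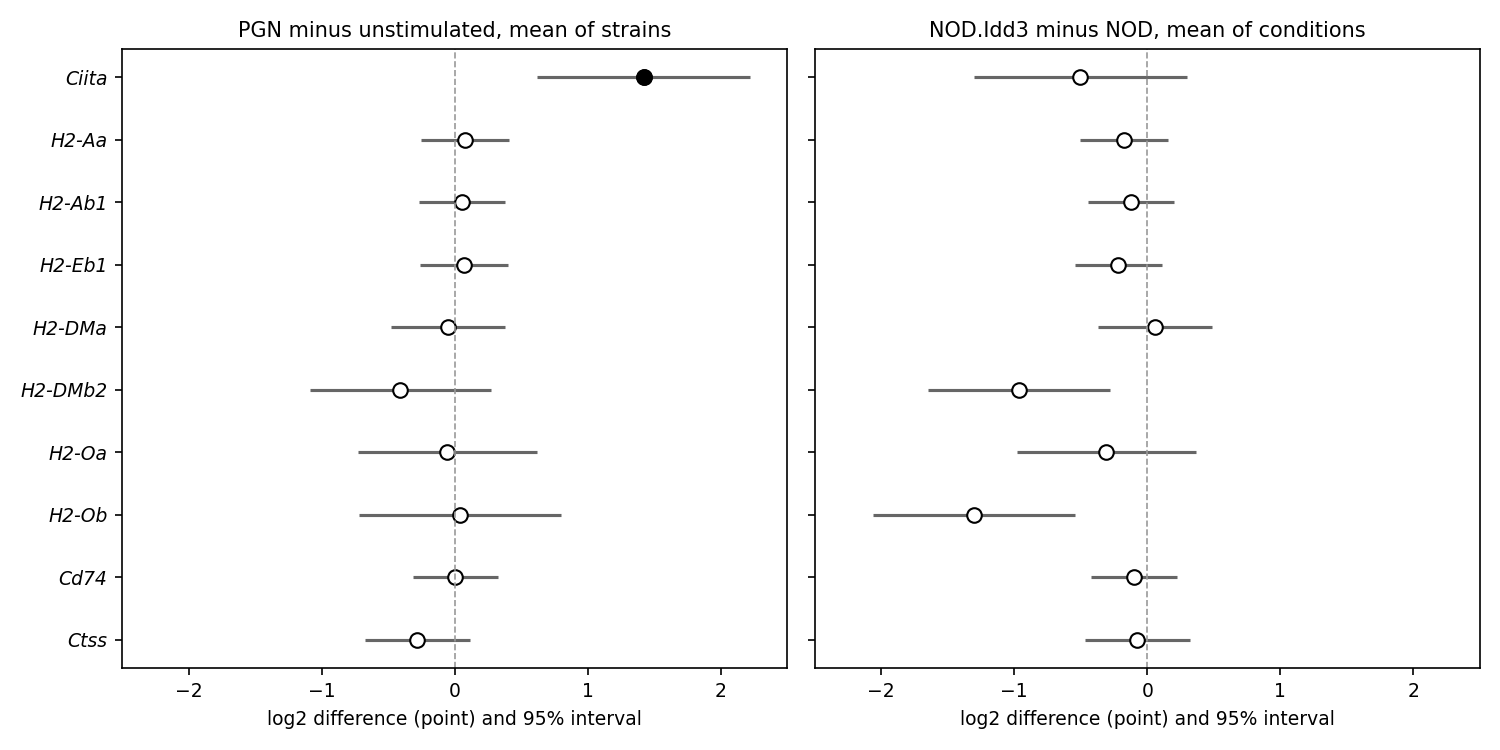
Log2 differences of the 10 genes with their 95% intervals from limma, PGN minus unstimulated averaged over strains (left) and NOD.Idd3 minus NOD averaged over conditions (right); a filled point has an adjusted p under 0.05. Ciita at 1.42 is the one filled point, and H2-Ob at -1.31 and H2-DMb2 at -0.96 are the members whose strain intervals exclude 0.

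Between the strains, 9 of 10 members had lower averaged values in NOD.Idd3, with H2-Ob and H2-DMb2 furthest from 0, but no gene of the table was called (0%). At an unadjusted p under 0.05, where 1175 genes (6.46%) lay, there were 2 members. The members' median difference was -0.20, beside -0.03 over all genes. Unstimulated, 7 members had both NOD.Idd3 arrays below both NOD arrays, beside 16.3% of all genes: Ciita, H2-Aa, H2-Eb1, H2-DMb2, H2-Oa, H2-Ob and Cd74. With PGN there were 2, H2-DMb2 and H2-Ob, beside 18.7%. The 7 are not independent counts. Over the arrays H2-Aa, H2-Eb1 and Cd74 correlated with each other at r from 0.81 to 0.89, while H2-Oa had r from -0.19 to -0.02 with them. Some unstimulated gaps were narrow. The higher NOD.Idd3 and lower NOD values were 14.40 and 14.43 for Cd74 and 13.76 and 13.80 for H2-Aa. For Ciita they were 6.58 and 7.34. A shift of the members as a set was not tested. H2-Ob alone had all 4 NOD.Idd3 arrays below all 4 NOD arrays, beside 1.77% of all genes.

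H2-Ob, the beta chain of the H2-DM inhibitor, read 6.96 and 8.21 in unstimulated NOD and 7.29 and 8.08 with PGN. In NOD.Idd3 it read 6.46 and 6.21 unstimulated and 6.83 and 5.81 with PGN. The difference was -1.31 ± 0.33 (95% interval -2.06 to -0.55, adjusted p = 0.572, and 0.277 with the replicate block). Within replicate 1 it was -0.50 unstimulated and -0.46 with PGN, and within replicate 2 it was -1.99 and -2.27. Leaving out 1 array at a time moved it between -1.62 and -0.99. Its partner H2-Oa read 7.02 and 7.64 in unstimulated NOD, 7.16 and 6.80 in NOD with PGN, 6.84 and 6.62 in unstimulated NOD.Idd3 and 7.65 and 6.28 in NOD.Idd3 with PGN. The strains overlapped for H2-Oa, whose difference was -0.31 ± 0.30.

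H2-DMb2 read lower in NOD.Idd3 by nearly the same amount in every pair of arrays. Within replicate 1 the difference was -1.12 unstimulated and -0.94 with PGN, and within replicate 2 it was -0.88 and -0.92. Averaged, it was -0.96 ± 0.30 (95% interval -1.64 to -0.28) with an adjusted p of 0.695. With the replicate block the adjusted p was 0.0486, which made H2-DMb2 the 1 member among the 0.148% of all genes (27) called in that fit. Its other 2 probe sets with a single symbol gave -0.94 ± 0.30 and -0.88 ± 0.32. A pair of probe sets shared by H2-DMb2 and its close paralogue H2-DMb1 gave -0.12 and -0.08. The array therefore did not give one answer for H2-DM beta chain RNA, and how the 2 genes share signal was not tested.

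None of the remaining strain differences had a 95% interval that excluded 0. Ciita differed by -0.50 ± 0.35. Both unstimulated NOD.Idd3 arrays lay below NOD, by 0.80 in replicate 1 and 0.92 in replicate 2, and with PGN the differences were -0.66 and 0.37. H2-Eb1 differed by -0.22 ± 0.14, H2-Aa by -0.18 ± 0.15, H2-Ab1 by -0.12 ± 0.14, Cd74 by -0.10 ± 0.14 and H2-DMa by 0.06 ± 0.19. The lower 95% limits for H2-Aa, H2-Ab1 and H2-Eb1 were -0.51, -0.44 and -0.54.

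Markers of B cells, which carry class II, H2-DM and H2-O, had lower values in NOD.Idd3, though none was called. Of 13 listed, 12 were measured, 11 of them below NOD at an unadjusted p under 0.05, with a median difference of -1.27. Their summed linear values were 2693 to 6536 in unstimulated NOD, 2561 to 5675 in NOD with PGN, 1189 to 1955 in unstimulated NOD.Idd3 and 1273 to 2141 in NOD.Idd3 with PGN. In the mean of 8 arrays 4 of the 12 lay below the all-gene median, and no value in the table is 0. Ms4a1, the B cell surface protein CD20, read 8.18 to 9.28 in NOD and 6.36 to 7.40 in NOD.Idd3. The mean of the B cell markers was higher in replicate 2 than in replicate 1 of every group, and so was H2-DMb2. H2-Ob was higher in replicate 2 in NOD and lower in replicate 2 in NOD.Idd3. In bulk RNA, fewer cells of a type and less RNA per cell cannot be told apart, and the part of B cells in these differences was not tested.

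**Figure D4:**
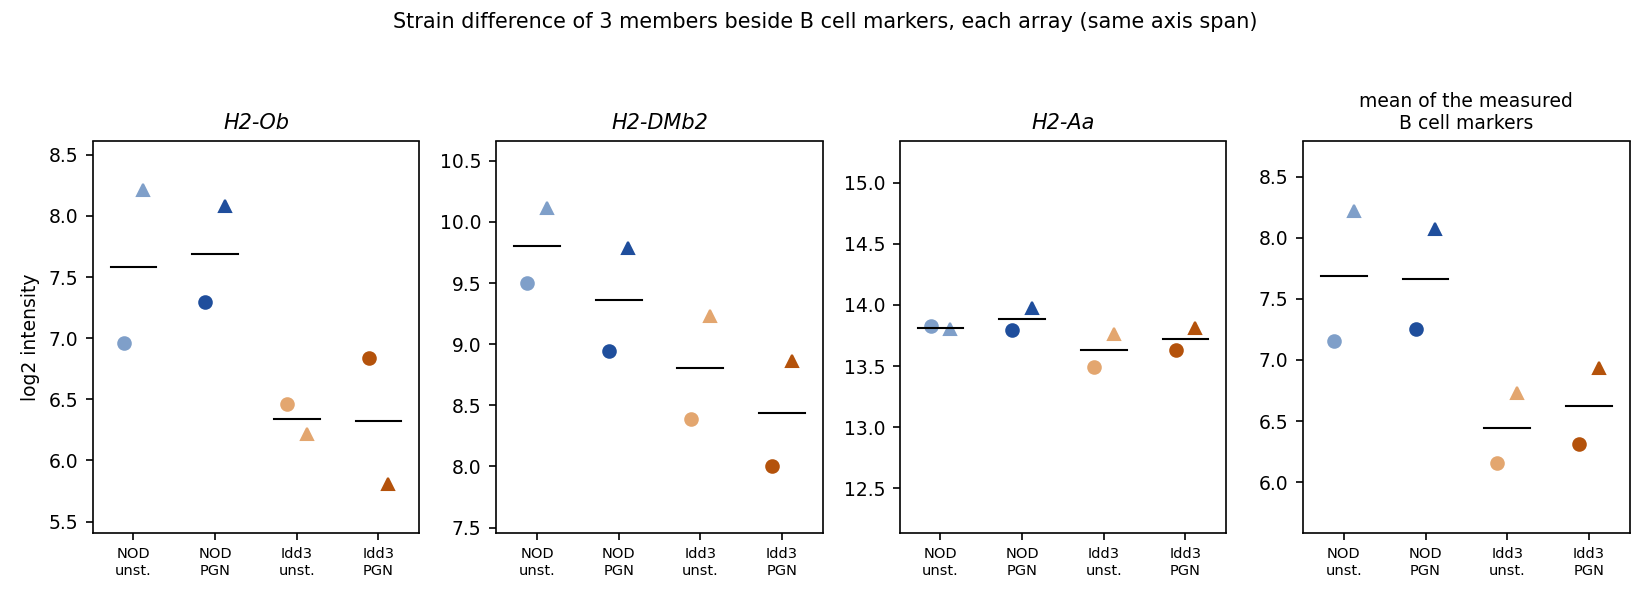
Log2 intensity of H2-Ob, H2-DMb2 and H2-Aa, and the mean log2 intensity of 12 B cell markers, on each array, with axes of equal span (circle, replicate 1; triangle, replicate 2; line, mean of 2). H2-Ob, H2-DMb2 and the B cell mean sit lower in NOD.Idd3, and H2-Aa differs little.

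Markers of dendritic cells and macrophages, other class II-bearing cells, also had lower medians in NOD.Idd3. Dendritic cell markers had a median strain difference of -0.32 over 11 measured of 12, with sums of 12101 to 17800 on NOD arrays and 7123 to 11343 on NOD.Idd3 arrays. Macrophage markers had a median of -1.25 over 10, with sums of 37588 to 40625 in NOD and 33257 to 35804 in NOD.Idd3. That list was split. At an unadjusted p under 0.05 by limma, 6 were lower (C1qa, C1qb, C1qc, Cd5l, Mertk and Mrc1) and 1 higher (Fcgr1, at 0.54). Csf1r, Cd68 and Adgre1 were at -0.05, -0.13 and -0.24. Monocyte and neutrophil markers had median strain differences of 0.08 and 0.19. The log2 gap between the 3′ and 5′ control probe sets of Gapdh, a sign of RNA or cDNA length, was 0.88 to 1.16 in NOD and 0.72 to 0.80 in NOD.Idd3. For Actb it was 0.43 to 0.58 in NOD and 0.22 to 0.46 in NOD.Idd3, where the strains overlapped. The part of these in the members' strain differences was not tested.

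With PGN, the median effect was 0.05 for the B cell list (1 rise, Cxcr5, a homing receptor) and 0.06 (-0.05 with further quantile normalization) for the dendritic cell list, where Ccr7, the lymph node homing receptor, rose and Clec10a, a lectin, fell. It was -0.06 for the macrophage list, with none called, and -0.32 for the neutrophil list, with 3 of 10 called lower. Over all genes, 11.3% were called in either direction. The T cell list had a median of -0.25 with 2 of 8 called lower. Its sums were 3818 to 6480 unstimulated and 1712 to 2044 with PGN in NOD. In NOD.Idd3 they were 4672 to 5715 against 2205 to 2602, with no overlap in either strain. Cd3d, the brightest gene of the list, made up most of these sums. It read 11.61 and 12.44 unstimulated and 10.18 and 10.45 with PGN in NOD. Cd3e read 6.88 and 7.01 against 6.51 and 7.03 there, with overlap. Averaged over the strains, 7 of the 8 were below 0 and 1 above. Dendritic cell sums were 12101 to 14774 unstimulated and 13812 to 17800 with PGN in NOD. In NOD.Idd3 they were 7123 to 9076 against 10518 to 11343, without overlap. Such sums weigh the brightest genes most. Ccr7 read 10.37 and 9.81 unstimulated and 11.82 and 12.38 with PGN in NOD.Idd3. Itgax, also a bright marker of the list, read 11.93 and 11.01 against 11.54 and 10.54 there. Averaged over the strains, 6 genes of the list were above 0 and 5 below. B cell sums overlapped between PGN and unstimulated arrays of each strain. The part of any cell type in the Ciita rise was not tested.

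Upstream of Ciita, 4 of 11 measured genes of 12 passed with PGN, 3 higher and 1 lower, beside the 11.3% background, and the list's median was 0.46. Irf4, a transcription factor of activated lymphocytes and dendritic cells, read 9.40 and 10.33 unstimulated and 10.77 and 12.21 with PGN in NOD, and 8.86 and 8.79 against 10.02 and 11.06 in NOD.Idd3. It rose by 1.67 ± 0.36 (adjusted p = 0.0201). Socs1, an inhibitor of interferon signalling through JAK kinases, rose by 1.32 ± 0.23 (adjusted p = 0.00797). Prdm1, which encodes the repressor Blimp-1 and silences Ciita in plasma cells, rose by 0.73 ± 0.20 (adjusted p = 0.0448). Ifngr1, the ligand-binding chain of the interferon-gamma receptor, fell by 0.96 on the log2 scale, from 9.58 to 9.92 unstimulated to 8.36 to 9.17 with PGN over both strains (adjusted p = 0.0070). Socs1 and Prdm1 are known to restrain Ciita or the signals upstream of it. The part of any gene of this list in the Ciita rise was not tested. The calls of Socs1 and Ifngr1 held in all 17 alternatives, that of Irf4 in 13 and that of Prdm1 in 9.

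The factors that carry CIITA or work with it on the promoters had a median of -0.28, with 8 of 9 below 0. Of these 9, 1 was called, near the 11.3% of all genes. That was Kat2b, an acetyltransferase that works with CIITA, at -0.54 ± 0.15 (adjusted p = 0.0472). The call held in 5 of 17 alternatives, and without _x_at and _s_at probe sets the value was -0.26. The subunit genes of RFX and NF-Y and the CREB genes were not called. Nfyb, an NF-Y subunit, was the gene above 0, at 0.53 ± 0.17 (adjusted p = 0.0774 by limma).

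**Figure D5:**
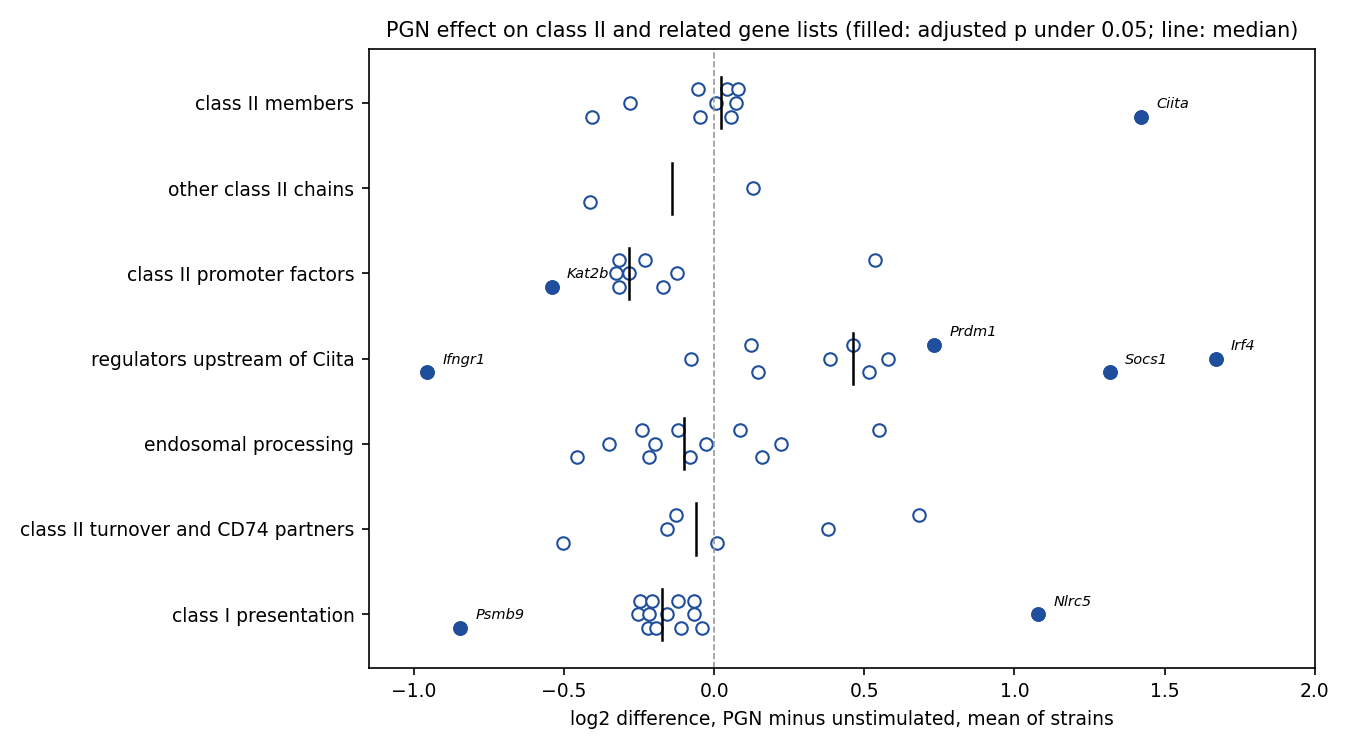
PGN minus unstimulated, averaged over strains, for each measured gene of 7 lists on the log2 scale, with filled points at an adjusted p under 0.05 and a line at each list's median. Ciita, Irf4, Socs1, Prdm1 and Nlrc5 are filled to the right and Ifngr1, Psmb9 and Kat2b to the left, while most other points lie within 0.6 of 0.

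The steps after transcription showed no call. Of the 12 endosomal proteases, reductases and membrane proteins, none passed, with a median of -0.10. Their widest values were 0.55 ± 0.17 for Lgmn, the asparagine endopeptidase (adjusted p = 0.0795), and -0.46 ± 0.19 for Ctsh, cathepsin H (adjusted p = 0.185, and 0.0481 with the replicate block). Of 6 measured genes of class II turnover and CD74 partners none passed either. Mif, a cytokine that binds CD74, was at 0.68 ± 0.30 (adjusted p = 0.194, and 0.0165 with the block) and Ap1m1, an adaptor subunit of vesicle traffic, at -0.50 ± 0.18 (0.114, and 0.0479 with the block). Marchf1, the ligase that sends class II for degradation, was at 0.01 ± 0.27.

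Of the other class II chains, 2 of 4 were measured and neither passed. H2-Ea, the I-E alpha chain that NOD mice lack at the protein level, was dim on all 8 arrays, at 4.47 to 5.20. H2-Eb2, a minor beta chain whose promoter held the X1 and Y pair, differed by -0.92 ± 0.28 between strains (unadjusted p = 0.0100, adjusted p = 0.684) and by -0.41 ± 0.28 with PGN (adjusted p = 0.409). Without NOD unstimulated replicate 1 the latter became -0.77, with an adjusted p of 0.0198.

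The class I pathway gave a parallel. Nlrc5, the class I counterpart of CIITA, read 10.77 and 9.94 unstimulated and 12.39 and 11.62 with PGN in NOD. In NOD.Idd3 it read 11.11 and 10.95 against 11.89 and 11.20. It was higher without overlap in either strain, as were 23.2% of all genes in NOD and 25.9% in NOD.Idd3. It rose by 1.08 ± 0.26 (adjusted p = 0.0316, and 0.00268 to 0.105 over its 17 alternatives, 11 of them called). Its PGN effect was 1.65 ± 0.37 in NOD (adjusted p = 0.0468) and 0.51 ± 0.37 in NOD.Idd3 (adjusted p = 0.622), while that of Ciita was larger in NOD.Idd3. Neither difference between strains was called. The other 13 class I genes measured had values below 0 (12 of them with further quantile normalization), and 1 of them fell: Psmb9, an immunoproteasome subunit, at -0.85 ± 0.17 (adjusted p = 0.0147). H2-K1 and H2-D1, the class I heavy chains, were at -0.19 ± 0.16 and -0.21 ± 0.15. Like the class II chains they were read close to the top of the arrays' range, at 13.37 to 14.11, and any compression there was not tested. So in both pathways the transactivator gene rose at 4 h and no gene for a chain of the molecule it controls was called higher. No gene of any of these lists was called between the strains.

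Outside the lists, the genes whose pattern over the 8 arrays was most like that of the chains and Cd74 were Slc19a1 (Pearson r = 0.97), Rpn1 (0.95), Btla (0.95), Scd1 (0.95) and Usp20 (0.94). For Ciita they were St14 (0.98), Washc4 (0.98), Gkap1 (0.96), Htt (0.96) and Carm1 (0.96). Each is the best of 9087 genes ranked, over arrays that share strain, PGN and replicate number, and is given as a description.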

How the data were processed

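The deposited table holds linear intensities, 1 for each probe set of each array, from 8 single-channel mouse expression arrays of biotin-labelled total RNA. The authors used RMA, per the submitters' processing notes; the sources used here do not give its version. Log2 of each deposited intensity was taken, without further normalization or filter. Of 45101 probe sets, 64 controls, 9160 with no symbol and 932 with several were left out, and 34741 of the remaining 34945 matched RefSeq (GRCm38.p6).

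The 4 group means were fitted with limma 3.58.1 in R 4.3.3 (lmFit, eBayes; 4 residual and 4.69 prior degrees of freedom) over 18193 genes. A gene was called at a Benjamini-Hochberg adjusted p under 0.05, and "rose" and "fell" name called genes. The script was tested on simulated data. The members and gene lists were chosen with earlier results of these data known. All members were named, with each list's called genes or else its 2 widest PGN effects. Other genes (markers, Nfyb, Marchf1, H2-K1, H2-D1) were chosen after their values were seen. The number of arrays limits the precision.

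The main fit had no replicate term, so its standard errors and p-values are unpaired. For the within-replicate differences and the replicate block, the replicate numbers were taken as pairing the arrays. Replicate 1 arrays share a date in the labels' array names. The differences between replicates correlated between groups with r from 0.17 to 0.42 over 6 pairs. Alternatives were the replicate block, the array-name suffix RR1 (meaning not given) as a term, a variance trend, a filter at the 40th percentile, other probe set rules, quantile normalization, array weights and leaving out each array. A sequence was shown only where the promoter table gave one.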

Additional observations from a re-analysis of the deposited data

Results flagged for a closer look

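A probe set shared by H2-Ob and the readthrough gene model Gm20506 lay outside the comparisons, which used probe sets of 1 gene. It was picked because it was higher with PGN in both strains without overlap. The rise was 0.371 on the log2 scale in the mean of strains (0.35 in NOD and 0.39 in NOD.Idd3). Of all genes, 23.2% in NOD and 25.9% in NOD.Idd3 were higher without overlap. The shared probe set read 6.18 and 6.24 unstimulated and 6.68 and 6.44 with PGN in NOD. In NOD.Idd3 it read 5.75 and 5.60 against 6.10 and 6.03. The H2-Ob probe set proper had a PGN effect of 0.04 ± 0.33. The strain difference of the shared probe set was -0.52, in the direction of H2-Ob, and none of its differences was tested.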

How the results depend on the processing

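Of 1098 values under alternatives, 971 kept their direction and their side of the threshold, 38 lost a call, 8 gained one and 81 changed sign. Most of these values were of results without a call, which had none to lose. All 38 lost calls were of the averaged PGN effect. Of 17 alternatives each, its call held in 17 for Ifngr1 and Socs1, 15 for Psmb9 and 13 for Irf4. It held in 11 for Ciita and Nlrc5, 9 for Prdm1 and 5 for Kat2b. The sign changes were in 33 single-gene results, none of them called, of at most 0.72 in size, and the smallest adjusted p after a change was 0.52. The cause of these changes was not tested. With 2 arrays per group, differences under about the 95% intervals printed above could not be seen.

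The number of members called for the averaged PGN effect was 0 with the RR1 term and 0 to 1 with 1 array left out. For the PGN effect in NOD.Idd3 it was 1 with the replicate block, 1 with the mean of all probe sets and 0 to 1 with 1 array left out. For the averaged strain difference it was 1 with the replicate block. The block changed no other count of members called, and among the members and the list genes named by the rule, the single genes it was run for, it ended no call and added those of Ciita in NOD.Idd3, H2-DMb2 between strains, and Ctsh, Mif and Ap1m1 with PGN.

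With further quantile normalization, the averaged PGN effect became 0.0199 for H2-DMa, 0.0585 for H2-Oa and -0.00303 for Cd74, the effect in NOD became -0.0086 for H2-Eb1 and 0.0897 for H2-DMa, and the difference between strains became 0.0147 for H2-Ab1. With the mean of all probe sets, H2-Aa became -0.0011 averaged, -0.19 in NOD.Idd3 and -0.38 for the difference, H2-DMa became 0.0515 in NOD, and H2-Ab1 became 0.0735 for the difference. Without _x_at and _s_at probe sets, H2-Ab1 became -0.0385 in NOD and 0.24 for the difference, and H2-DMb2 became -0.14 for the difference. With the RR1 term, H2-Ob became 0.36 in NOD.Idd3 and 0.26 for the difference.

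With 1 array left out, the averaged PGN effect ran from -0.22 to 0.12 for H2-DMa, from -0.40 to 0.29 for H2-Oa, from -0.27 to 0.35 for H2-Ob and from -0.0500 to 0.0628 for Cd74. The PGN effect in NOD ran from -0.0241 to 0.16 for H2-Aa, -0.0516 to 0.13 for H2-Eb1, -0.19 to 0.16 for H2-DMa, -0.52 to 0.72 for H2-Ob, -0.15 to 0.0789 for Cd74 and -0.37 to 0.0181 for Ctss. In NOD.Idd3 it ran from -0.0437 to 0.22 for H2-Aa, -0.0691 to 0.15 for H2-Ab1, -0.0214 to 0.23 for H2-Eb1, -0.43 to 0.27 for H2-DMa, -0.80 to 0.0579 for H2-DMb2, -0.45 to 0.93 for H2-Oa, -0.53 to 0.49 for H2-Ob and -0.0437 to 0.14 for Cd74. The difference in PGN effect ran from -0.16 to 1.61 for Ciita, -0.11 to 0.15 for H2-Aa, -0.14 to 0.0728 for H2-Ab1, -0.0596 to 0.19 for H2-Eb1, -0.41 to 0.28 for H2-DMa, -0.36 to 0.50 for H2-DMb2, -0.10 to 1.27 for H2-Oa, -0.74 to 0.50 for H2-Ob, -0.0322 to 0.19 for Cd74 and -0.44 to 0.0283 for Ctss. The strain difference ran from -0.12 to 0.23 for H2-DMa, -0.65 to 0.0375 for H2-Oa and -0.19 to 0.0433 for Ctss.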
